A study of Mus musculus with 6 samples.

Results

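The chemokine system was followed here in mouse liver through 52 genes, 35 chemokine ligands and 17 chemokine receptors. Members were chosen by gene name on the array: names that begin with Ccl, Cxcl, Ccr or Cxcr and a number, names that begin with Cx3c, Xcl1 and Xcr1, and Il8rb, the older name of Cxcr2. They were read by 69 of the 41174 probes on the array outside control spots, which carry 27670 gene names. Other current names apply to 3 further members: the array's Cxcl4 is Pf4, its Cxcl7 is Ppbp and its Ccl27 is Ccl27a.

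The samples were total RNA from whole livers of male C57BL/6J mice, each labelled with Cy3 and read on its own Agilent 1-colour array. From 8 weeks of age the mice were fed for 12 weeks and were 20 weeks old at the end. The CFD diet group (n = 3) ate an iron-supplemented diet built from l-amino acids free of choline and of folic acid, with methionine at only 0.17%. The control group (n = 3) ate that diet, iron included, with more methionine (0.4%), with choline bitartrate (at 0.3%) and with folic acid (2 mg/kg). The diets therefore differ in 3 nutrients at once, and their effects cannot be told apart. The labels number the samples without stating whether each is a different mouse, and p-values then reflect the spread among these samples alone, which may be technical.

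Chemokines are small secreted proteins that direct the movement of leukocytes, and they are grouped as CC, CXC, CX3C and XC by the spacing of their conserved cysteines. They act through receptors coupled to Gi proteins, most of which bind several ligands. In liver, hepatocytes, Kupffer cells, stellate cells, endothelium and bile duct cells can all make chemokines, and monocytes, neutrophils and lymphocytes carry the receptors.

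Levels are given as log2 signal relative to the array's own 75th percentile of signal, so 0 is that percentile and negative values lie below it. They are set against each other only for the same gene, since probes differ in brightness. A gene was tested where one of its probes stood well above background throughout a group, on each of its 3 arrays, and it was called higher or lower at an adjusted p below 0.05 (limma, Benjamini-Hochberg over the 15909 genes tested). The 75th percentile of signal was 365.0 to 438.8 on control arrays and 404.1 to 670.2 on CFD diet arrays, and no spot was saturated. All 15 hepatocyte markers were well above background on all 6 arrays, and 9 were called lower and 0 higher on the CFD diet. Between 29 and 39 of the 52 members were well above background on a control array and between 39 and 45 on a CFD diet array. Scaling to the array median in place of the 75th percentile moved the median difference over all tested genes from -0.11 to -0.31, and the calls from 3776 higher and 4353 lower to 2934 higher and 5814 lower. Differences are therefore relative to the scaling.

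Of the tested chemokine genes, 31 of 39 were called, where 51.1% of all tested genes were called in either direction, and more were higher than lower. Of 39 tested members, 23 were called higher (59.0%) against 23.7% of all tested genes, and 8 were called lower (20.5%) against 27.4%. At least a 2-fold difference was reached by 21 of those called higher, where the share over all tested genes was 14.8%, and by 6 of those called lower, where it was 9.77%. The median difference was 1.35 over the tested members and -0.11 over all tested genes. These counts lean upward by construction, because 11 members entered the test through the CFD diet arrays alone and 10 of those were called higher, while 0 entered through the control arrays alone. Among the 28 members well above background on all 6 arrays, 13 were called higher (46.4%) against 19.8% of the 14248 genes so detected, and 8 lower (28.6%) against 30.5%. Their median difference was 0.53, beside -0.16 for all genes so detected. In bulk tissue, fewer cells of a type and less RNA per cell cannot be told apart, nor can more of either.

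**Figure D1:**
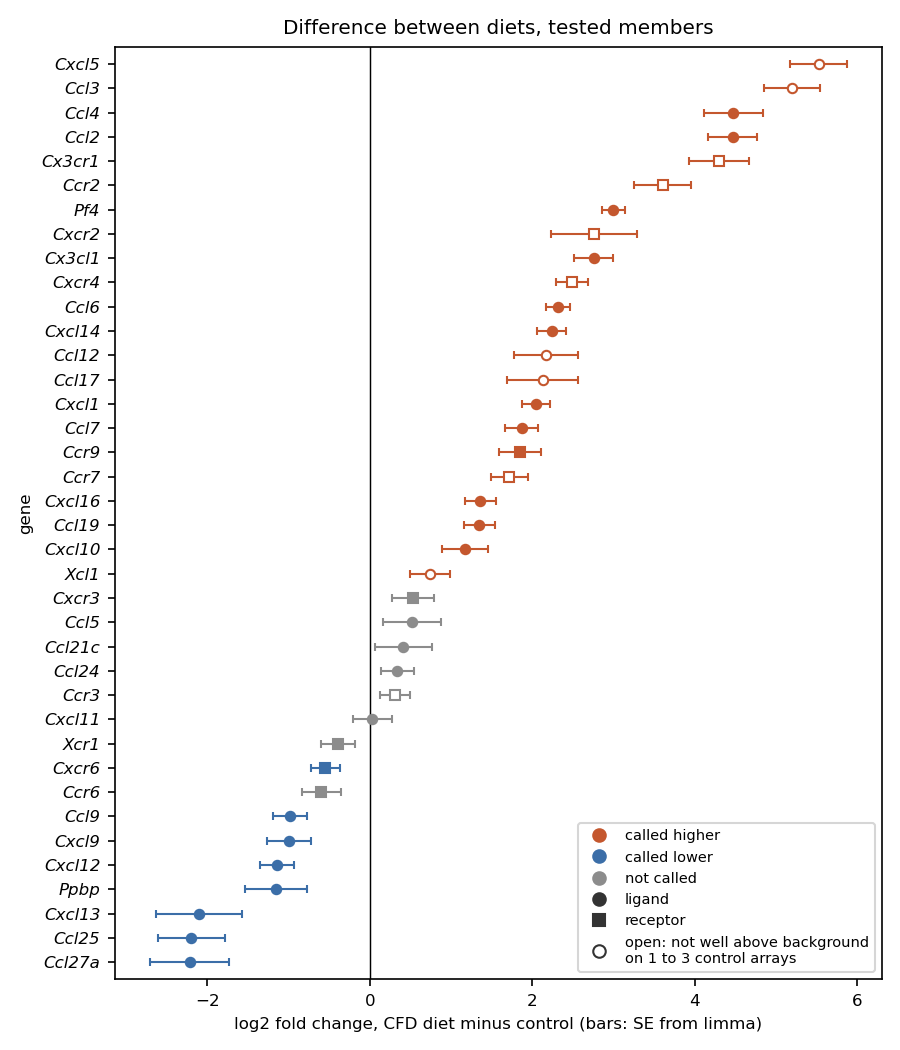
Log2 fold change (CFD diet minus control, x axis) of 38 of the 39 tested chemokine genes (y axis), with SE from limma as bars, circles for ligands and squares for receptors. Open symbols were not well above background on 1 to 3 control arrays. Cxcl5, Ccl3, Ccl4, Ccl2 and Cx3cr1 lie at the top, and Ccl27a, Ccl25 and Cxcl13 at the bottom.

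Ccl2, Ccl7 and Ccl12, the CC ligands paired with Ccr2, were called higher. Ccl2, the principal ligand of Ccr2 on inflammatory monocytes (probe at chr11:82118723-82118782, build mm7), was at -1.38, -1.72 and -2.0 on the control arrays and at 2.58, 2.37 and 3.39 on the CFD diet arrays. All 3 CFD diet values lay above the 75th percentile and all 3 control values below it. The difference was 4.47 ± 0.30 (SE, n = 3 per group), a 22.2-fold higher signal (limma adjusted p = 0.000133). Ccl7, another ligand of Ccr2, was at -3.71, -3.55 and -3.64 on the control diet and at -2.05, -1.89 and -1.35 on the CFD diet, 1.87 ± 0.20 higher (limma adjusted p = 0.000666). Its groups did not overlap, but its probes disagreed in size. The dimmer Ccl7 probe, well above background on 1 of 3 control arrays, differed by 4.97 ± 0.45, and the mean of both probes by 3.42, while normexp correction gave 0.95 for the brighter probe. Ccl12, the third ligand of this set, was at -5.88, -7.25 and -6.65 against -4.87, -4.57 and -3.84, and was well above background on 1 control array and all 3 CFD diet arrays. It was called higher by 2.17 ± 0.40 (limma adjusted p = 0.00506), but with normexp background correction the difference was 0.27 (limma adjusted p = 0.396).

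Ccl3 and Ccl4, the macrophage inflammatory proteins, both rose. Ccl3 (chr11:83717761-83717820, mm7) was at -5.35, -5.76 and -6.45 on control arrays, of which 1 was well above background, and at -0.44, -1.22 and -0.29 on CFD diet arrays. Ccl4 (chr11:83734455-83734514, mm7) was at -3.19, -3.67 and -4.32 on control arrays and at 0.45, 0.46 and 1.35 on CFD diet arrays. In both genes the lowest CFD diet array stood far above the highest control array. The difference was 5.20 ± 0.35 for Ccl3 (36.9-fold, limma adjusted p = 0.000138) and 4.48 ± 0.36 for Ccl4 (22.4-fold, limma adjusted p = 0.000246). With normexp correction, which compresses dim signals, Ccl3 differed by 2.15 and remained called.

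Ccl5 (RANTES), a product of T and NK cells, did not pass the test. It was at 0.38, 1.44 and 0.38 on the control diet and at 0.75, 1.36 and 1.65 on the CFD diet, so that control array 2 lay inside the CFD diet range. The difference was 0.52 ± 0.36 (limma adjusted p = 0.258), and 0.88 without control replicate 2 (limma adjusted p = 0.0489). A second probe gave 0.48 ± 0.29.

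Ccl6 and Ccl9, both ligands of Ccr1 made by macrophages and neighbours in the genome, were called in opposite directions. Ccl6 was at 1.73, 1.64 and 1.44 on control arrays and at 3.74, 3.95 and 4.08 on CFD diet arrays, 2.32 ± 0.15 higher (limma adjusted p = 0.000116). Ccl9 was at 3.33, 3.25 and 3.16 on control arrays and at 1.96, 2.74 and 2.10 on CFD diet arrays, a difference of -0.98 ± 0.21 (limma adjusted p = 0.00946). Neither gene's groups overlapped. For Ccr1 itself, 0 of 6 arrays were well above background.

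Ligands that guide lymphocytes and dendritic cells were divided. Ccl17, a ligand of Ccr4 on type 2 helper and regulatory T cells, was at -4.04, -5.60 and -4.70 on control arrays, 1 of them well above background, and at -3.22, -2.09 and -2.63 on CFD diet arrays. It was higher by 2.13 ± 0.44 (limma adjusted p = 0.00771), and by 0.78 with normexp correction. Ccl19, which draws Ccr7-bearing dendritic cells and T cells to lymph nodes, was at 0.25, 0.19 and 0.25 against 1.17, 1.73 and 1.84. All CFD diet values of Ccl19 exceeded all control values, by 1.35 ± 0.19 on average (limma adjusted p = 0.00199), and its second probe differed by 1.39 ± 0.21. Ccl21c, a Ccr7 ligand from the same family, was at -3.04, -3.05 and -2.60 on control arrays and at -2.91, -1.68 and -2.86 on CFD diet arrays. It differed by 0.41 ± 0.35 (limma adjusted p = 0.356) and has near-identical copies in the mouse genome that the probe may not separate, as may also hold for Ccl19 and Ccl27a. Ccl24, an eotaxin that attracts eosinophils through Ccr3, ranged from 0.67 to 0.93 on control arrays and from 0.81 to 1.56 on CFD diet arrays, with a difference of 0.34 ± 0.20 (limma adjusted p = 0.203).

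Ccl25 and Ccl27a, CC ligands best known from epithelia, fell. Ccl25, the thymic and intestinal ligand of Ccr9 (chr8:4325884-4325943, mm7), was at 1.35, 1.23 and 1.61 on control arrays and at -1.49, 0.18 and -1.11 on CFD diet arrays. Ccl27a, the skin ligand of Ccr10, was at 1.07, 0.99 and 1.31 on control arrays and at -1.94, 0.10 and -1.45 on CFD diet arrays. In both, CFD diet array 2 was the nearest to the control arrays, yet lay below all of them. The difference was -2.20 ± 0.41 for Ccl25 (limma adjusted p = 0.00539), with -2.32 ± 0.34 at its second tested probe. For Ccl27a it was -2.22 ± 0.49 (limma adjusted p = 0.00969). Within slides, which each held a control and a CFD diet array, Ccl25 differed by -2.84, -1.05 and -2.72 and Ccl27a by -3.01, -0.90 and -2.76.

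**Figure D2:**
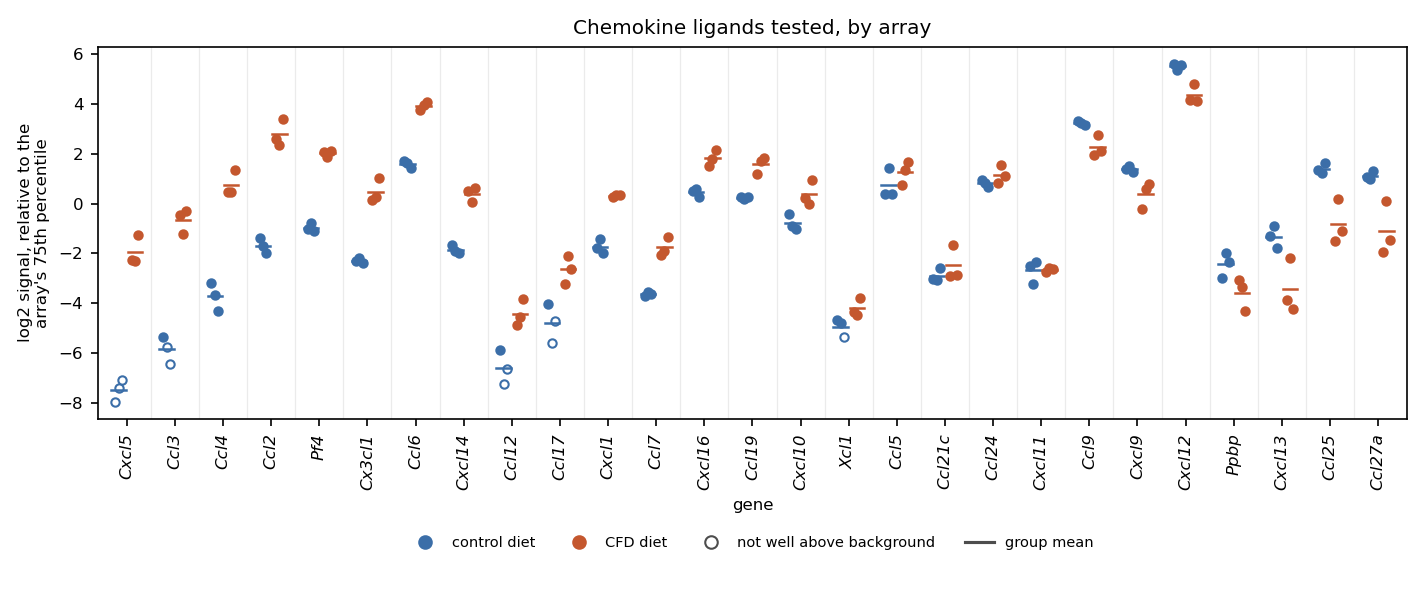
Log2 signal relative to the array's 75th percentile (y axis) for the 27 tested chemokine ligands (x axis), 1 point per array, with bars at the group means and open points for arrays where the probe was not well above background. CFD diet points lie above all control points for 16 ligands, from Cxcl5 to Xcl1, and below them for 7, from Ccl9 to Ccl27a, where 28.4% of all tested genes did not overlap upward and 34.6% downward.

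Among CXC ligands, Cxcl5 and Cxcl1 rose, both ligands of Cxcr2, the receptor that brings neutrophils into tissue. Cxcl5 (chr5:90732453-90732512, mm7) was not well above background on any control array, with values of -7.96, -7.42 and -7.07, and was at -2.27, -2.31 and -1.27 on the CFD diet. The signal was at least 11-fold higher on the CFD diet (limma adjusted p = 0.000116), the bound being set by the dimmest signals well above background on each control array. Cxcl1, another neutrophil attractant, was at -1.77, -1.42 and -1.99 on control arrays and at 0.26, 0.34 and 0.35 on CFD diet arrays. The CFD diet values of Cxcl1 lay within 0.1 of each other and above all control values, and the difference was 2.05 ± 0.17 (4.13-fold, limma adjusted p = 0.000269). Cxcl2, a further Cxcr2 ligand, was well above background on 1 control and 2 CFD diet arrays and was not tested. Its values were -8.59, -4.01 and -7.03 on control arrays and -4.57, -5.80 and -4.51 on CFD diet arrays, which overlap.

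The promoters of Cxcl1 and Cxcl2 are shown because these neighbouring genes share a ligand role and both hold overlapping NF-kB matches, while only Cxcl1 gave a testable level. The sequences are RefSeq's 250 bases before the start site in build GRCm38.p6, for Cxcl1 at chr5:90890995-90891244 and for Cxcl2 at chr5:90903649-90903898, both on the plus strand. Capitals mark matches to the NF-kB motif or to the interferon-stimulated response element on either strand.
Cxcl1: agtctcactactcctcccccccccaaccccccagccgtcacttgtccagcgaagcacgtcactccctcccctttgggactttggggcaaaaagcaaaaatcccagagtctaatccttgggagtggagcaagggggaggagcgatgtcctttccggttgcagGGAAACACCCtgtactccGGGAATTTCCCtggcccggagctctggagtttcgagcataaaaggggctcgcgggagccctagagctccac
Cxcl2: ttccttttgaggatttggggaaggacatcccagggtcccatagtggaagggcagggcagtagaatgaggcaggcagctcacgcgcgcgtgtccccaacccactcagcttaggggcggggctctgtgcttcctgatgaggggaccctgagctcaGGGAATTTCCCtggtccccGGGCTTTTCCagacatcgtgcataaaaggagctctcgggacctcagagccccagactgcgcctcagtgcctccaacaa
In Cxcl1, NF-kB matches began at -89, -71 and -70 from the start site, the last 2 being overlapping matches on opposite strands. In Cxcl2 they began at -97, -96 and -78, where the first pair overlapped. The motif was found in 5.31% of the 27025 genes with a promoter in the table, and in 8 of the 39 chemokine members with a promoter there. Those 8 were Ccl1, Ccl20, Ccl9, Ccr3, Ccr6, Cxcl1, Cxcl10 and Cxcl2, of which 2 were called higher and 1 lower. A match describes letters and not binding.

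The interferon-inducible ligands of Cxcr3, a receptor of activated T and NK cells, did not move together. Cxcl9 (chr5:92310412-92310471, mm7) was at 1.37, 1.5 and 1.27 on control arrays and at -0.23, 0.60 and 0.78 on CFD diet arrays, a difference of -1.0 ± 0.27 (limma adjusted p = 0.0196). Cxcl10 (chr5:92334002-92334061, mm7) was at -0.43, -0.90 and -1.03 on control arrays and at 0.24, -0.03 and 0.93 on CFD diet arrays, a difference of 1.17 ± 0.28 (limma adjusted p = 0.0131). The groups did not overlap in either gene. Cxcl11 was at -2.49, -3.23 and -2.33 against -2.76, -2.57 and -2.62, and its difference was 0.03 ± 0.24 (limma adjusted p = 0.921). Both calls were close to the threshold. Cxcl9 lost its call without control replicate 1 (limma adjusted p = 0.0506) or control replicate 2 (limma adjusted p = 0.0593), and both genes lost it when dim probes were kept in the test.

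The promoters of Cxcl9 and Cxcl10 are set side by side because these neighbours were called in opposite directions. They lie on the minus strand of GRCm38.p6 at chr5:92328080-92328329 for Cxcl9 and chr5:92348890-92349139 for Cxcl10, with RefSeq's sequence and capitals as for Cxcl1.
Cxcl9: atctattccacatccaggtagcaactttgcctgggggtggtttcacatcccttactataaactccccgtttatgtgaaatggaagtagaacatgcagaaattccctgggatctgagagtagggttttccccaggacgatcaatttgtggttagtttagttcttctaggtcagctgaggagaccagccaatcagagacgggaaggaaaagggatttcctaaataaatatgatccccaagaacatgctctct
Cxcl10: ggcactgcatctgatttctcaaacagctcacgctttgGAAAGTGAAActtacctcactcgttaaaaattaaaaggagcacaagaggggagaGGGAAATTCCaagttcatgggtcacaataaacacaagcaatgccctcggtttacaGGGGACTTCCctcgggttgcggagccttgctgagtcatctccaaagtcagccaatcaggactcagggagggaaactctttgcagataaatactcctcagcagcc
Cxcl10 held an interferon element at -213 and NF-kB matches at -159 and -104, while neither motif's letters occurred in this window of Cxcl9. The interferon element was found in 3.46% of genes with a promoter and in 3 members, Cxcl10, Ccl19 (at -208) and Cxcl14 (at -172). All 3 were among the 16 members called higher that had a promoter in the table. Of the 8 called lower with a promoter, 0 held it. With only 3 members holding the element, these counts cannot show a difference between directions, and none was tested. Whether these motifs bear on the opposite calls of Cxcl9 and Cxcl10 was not tested either. The AP-1 motif TGANTCA, found in 7.82% of genes, occurred in 6 members, including Cxcl10 at -74. The TATA box TATAAA, found in 14.3% of genes, occurred in 12 members, 3 of them called higher and 5 lower. All motifs were searched on both strands, and no NF-kB match overlapped an interferon element in these 4 promoters.

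Pf4 and Ppbp, both stored in platelet granules, were called in opposite directions. Pf4 (chr5:90744523-90744582, mm7) was at -1.04, -0.78 and -1.09 on control arrays and at 2.09, 1.88 and 2.10 on CFD diet arrays. The difference of 3.00 ± 0.14 (7.98-fold, limma adjusted p = 6.59e-05) had a smaller SE than that of any other member called higher. Ppbp was at -2.97, -2.0 and -2.33 on control arrays and at -3.07, -3.37 and -4.32 on CFD diet arrays, a difference of -1.16 ± 0.38 (limma adjusted p = 0.0403). Control array 1 and CFD diet array 1 of Ppbp differed by only -0.10, and with the slide as a replicate block the limma adjusted p was 0.0626. The Ppbp call was also lost without control replicate 2 (limma adjusted p = 0.115), control replicate 3 (0.103), CFD diet replicate 2 (0.0615) or CFD diet replicate 3 (0.0919), with dim probes kept in the test (0.116), and with normexp correction, which gave -0.42 (0.0996).

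Cxcl12 and Cxcl13 were both called lower. Cxcl12, the stromal ligand of Cxcr4 that retains blood-forming cells in the marrow (chr6:117207552-117207611, mm7), was at 5.61, 5.35 and 5.56 on control arrays and at 4.17, 4.80 and 4.12 on CFD diet arrays. It was lower by -1.14 ± 0.21 (limma adjusted p = 0.00477), but its second probe differed by -0.43 ± 0.19 and did not pass the test (limma adjusted p = 0.0919). Quantile normalization gave -0.75 for the first probe. Cxcl13, which draws B cells into follicles through Cxcr5, was at -1.31, -0.92 and -1.78 against -3.89, -2.20 and -4.24. The Cxcl13 groups did not overlap, with CFD diet array 2 nearest to the control arrays, and the difference was -2.10 ± 0.53 (limma adjusted p = 0.0163). This call was lost without control replicate 2 (limma adjusted p = 0.0520), CFD diet replicate 1 (0.0539) or CFD diet replicate 3 (0.0507), and with dim probes kept in the test (0.0583). Normexp correction gave -1.09 for Cxcl13.

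Cxcl14, a ligand made by epithelia and stroma, was at -1.67, -1.90 and -2.0 on control arrays and at 0.49, 0.06 and 0.62 on CFD diet arrays. It was 2.24 ± 0.18 higher (4.74-fold, limma adjusted p = 0.000258). Cxcl16, a transmembrane chemokine that also takes up oxidised lipoprotein, was at 0.51, 0.59 and 0.27 against 1.49, 1.81 and 2.15. Both genes had every CFD diet array above every control array, and Cxcl16 differed by 1.36 ± 0.19 (limma adjusted p = 0.00210), with 1.24 ± 0.20 at its second probe.

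Cx3cl1 (fractalkine), the membrane-bound ligand of Cx3cr1 (chr8:93371329-93371388, mm7), was at -2.29, -2.17 and -2.40 on control arrays and at 0.13, 0.27 and 1.01 on CFD diet arrays. The difference was 2.76 ± 0.24 (6.77-fold, limma adjusted p = 0.000343), with no overlap. A second Cx3cl1 probe was well above background on no array. Xcl1 (lymphotactin), made by T and NK cells, was at -4.67, -4.80 and -5.34 on control arrays, 2 of them well above background, and at -4.35, -4.48 and -3.78 on CFD diet arrays. Its difference of 0.74 ± 0.25 only just passed (limma adjusted p = 0.0454). The Xcl1 call was lost in 11 of the other settings tried, with limma adjusted p from 0.0505 to 0.596, and with the slide as a replicate block it was 0.0984.

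Of the 17 receptors, 12 could be tested, and 7 were called higher and 1 lower, against 23.7% and 27.4% of all tested genes. Only 6 of the 12 were well above background on all control arrays. Cx3cr1, Ccr2, Cxcr2, Cxcr4, Ccr7 and Ccr3 entered the test through the CFD diet arrays alone, and all of these but Ccr3 were called higher. The count of higher receptors therefore leans upward by construction. Cx3cr1, carried by monocytes and tissue macrophages (chr9:119745795-119745854, mm7), was at -5.87, -5.11 and -5.85 on control arrays, 1 of them well above background, and at -1.01, -2.07 and -0.85 on CFD diet arrays. Ccr2, the receptor of inflammatory monocytes (chr9:123827135-123827194, mm7), was at -4.28, -4.19 and -5.22 on control arrays, 2 of them well above background, and at -0.83, -1.49 and -0.54 on CFD diet arrays. Both genes were lowest on array 2 among the CFD diet arrays, and neither had overlapping groups. Cx3cr1 differed by 4.30 ± 0.37 (19.6-fold, limma adjusted p = 0.000315) and Ccr2 by 3.61 ± 0.35 (12.2-fold, limma adjusted p = 0.000489). With normexp correction these were 1.79 and 1.69, and both remained called. A second probe of each gene was too dim to be tested. That of Cx3cr1 was well above background on 1 control and 1 CFD diet array, and its groups overlapped. That of Ccr2 was well above background on 0 control arrays and 1 CFD diet array, with the CFD diet arrays higher and no overlap.

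Cxcr2 (chr1:74402562-74402621, mm7) was not well above background on any control array, at -6.85, -5.12 and -6.07, and was at -2.59, -4.11 and -3.04 on the CFD diet. It was at least 4.47-fold higher (limma adjusted p = 0.00581), and the slides differed by 4.25, 1.01 and 3.03. A second Cxcr2 probe, well above background on 0 control arrays and 1 CFD diet array, was not tested, and its groups overlapped. Cxcr4, the Cxcl12 receptor found on most leukocytes (chr1:128468640-128468699, mm7), was at -5.35, -5.67 and -4.96 on control arrays, 1 of them well above background, and at -2.71, -2.96 and -2.85 on CFD diet arrays. The 3 CFD diet values of Cxcr4 lay close together and far from the control values. The difference was 2.49 ± 0.20 (5.61-fold, limma adjusted p = 0.000247), with 2.07 ± 0.37 at a second probe. Normexp correction gave 0.78 for each of Cxcr2 and Cxcr4, and both remained called.

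Ccr9 and Ccr7 also rose. Ccr9, the Ccl25 receptor of gut-homing T cells and plasmacytoid dendritic cells, was at -4.17, -3.96 and -4.34 against -2.68, -2.48 and -1.75, a difference of 1.85 ± 0.26 (limma adjusted p = 0.00185). Ccr7, which takes dendritic cells and naive T cells to lymph nodes, was at -4.25, -4.00 and -4.76, with 2 control arrays well above background, against -2.75, -2.75 and -2.35, a difference of 1.72 ± 0.23 (limma adjusted p = 0.00156). The groups did not overlap in either receptor. With normexp correction the difference was 0.81 for Ccr9 and 0.71 for Ccr7.

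Cxcr6, the Cxcl16 receptor of liver T and NKT cells, was the receptor called lower. It was at -1.28, -1.25 and -1.70 on control arrays and at -2.16, -2.0 and -1.73 on CFD diet arrays, where the highest CFD diet array and the lowest control array nearly met. The difference was -0.55 ± 0.18 (limma adjusted p = 0.0384). The call was lost with the slide as a replicate block (limma adjusted p = 0.0866), and without control replicate 1 (0.113), control replicate 2 (0.113), CFD diet replicate 1 (0.107) or CFD diet replicate 2 (0.0744), and with normexp correction (0.115) or with dim probes kept in the test (0.122).

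The other 4 tested receptors were not called. Cxcr3 was at -2.32, -1.72 and -2.38 on control arrays and at -1.99, -1.60 and -1.23 on CFD diet arrays, which overlap, with a difference of 0.53 ± 0.26 (limma adjusted p = 0.123). Ccr3, of eosinophils, ranged from -5.16 to -4.96 on control arrays, 1 of them well above background, and from -5.13 to -4.42 on CFD diet arrays, with a difference of 0.31 ± 0.19 (limma adjusted p = 0.216). Xcr1, of cross-presenting dendritic cells, was at -2.74, -2.95 and -3.03 against -2.93, -3.30 and -3.67, a difference of -0.39 ± 0.21 (limma adjusted p = 0.151). The Xcr1 and Ccr6 results depended on the scaling. Ccr6, of B cells and type 17 helper T cells, was at -3.97, -3.84 and -4.44 against -5.11, -4.50 and -4.45, a difference of -0.60 ± 0.24 (limma adjusted p = 0.0730) with no overlap. Scaled to the array median, both were called lower, Ccr6 by -0.81 (limma adjusted p = 0.0253) and Xcr1 by -0.60 (limma adjusted p = 0.0316). Ccr6 was also called without control replicate 3 (-0.78, limma adjusted p = 0.0487) and Xcr1 without CFD diet replicate 1 (-0.58, limma adjusted p = 0.0441).

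**Figure D3:**
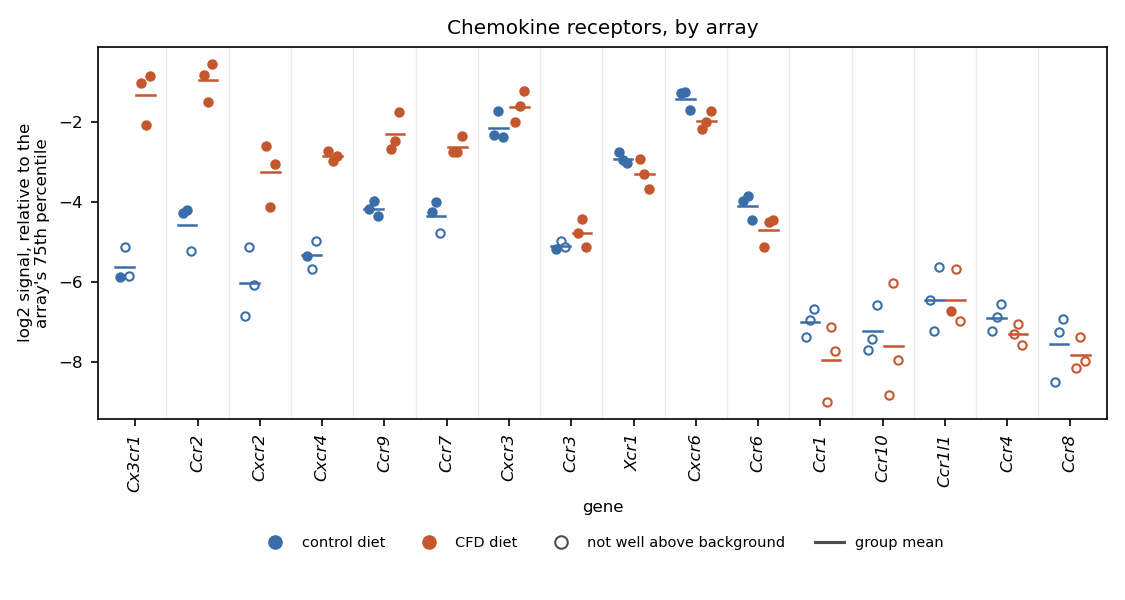
Log2 signal relative to the array's 75th percentile (y axis) for 16 of the 17 chemokine receptors (x axis), 1 point per array, with bars at the group means and open points for arrays where the probe was not well above background. Tested receptors come first, from Cx3cr1 to Ccr6, and the 5 untested ones, at the right, have mostly open points.

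A further 13 members were not tested. Ccl1, Ccl11, Ccl22, Ccr1, Ccr10, Ccr4 and Ccr8 were well above background on no array. Ccl20, the ligand of Ccr6, was well above background on 0 control and 2 CFD diet arrays, at -6.28, -5.38 and -6.51 against -4.84, -4.92 and -4.05, at least 1.72-fold higher with no test. Ccl8, a monocyte attractant, was at -5.14, -3.20 and -5.07 against -6.77, -5.72 and -5.91, and was well above background on 2 control and 1 CFD diet arrays. The Ccl8 groups did not overlap, with the CFD diet arrays lower, but most of those values were not well above background. Ccl28 was well above background on 2 control and 1 CFD diet arrays, and Cxcl15 and Ccr1l1 each on 1 CFD diet array.

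Ligands and receptors were then paired from textbook knowledge, giving 32 pairs among the members reported here, of which 18 had both genes tested. Both genes were called higher in 7 pairs: Ccr2 with Ccl2, Ccl7 and Ccl12, Cxcr2 with Cxcl1 and Cxcl5, Ccr7 with Ccl19, and Cx3cr1 with Cx3cl1. Genes recur among the pairs, so the pairs are not independent. Ccr2, Cxcr2, Ccr7, Cx3cr1, Ccl12 and Cxcl5 entered the test through the CFD diet arrays alone. Counts of higher pairs therefore lean upward by construction. Of all tested genes, 23.7% were called higher and 27.4% lower. In 0 pairs were both called lower. Ligand and receptor were called in opposite directions in 3 pairs. Cxcr4 and Ccr9 were higher while Cxcl12 and Ccl25 were lower, and Cxcr6 was lower while Cxcl16 was higher. The receptor was not called in 3 pairs with a higher ligand (Ccr3 with Ccl7, Cxcr3 with Cxcl10, Xcr1 with Xcl1) and in 1 with a lower ligand (Cxcr3 with Cxcl9). The ligand was not called in 1 pair with a higher receptor (Ccr7 with Ccl21c), and neither gene was called in 3. Whether the members of a pair differed from each other was not tested.

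**Figure D4:**
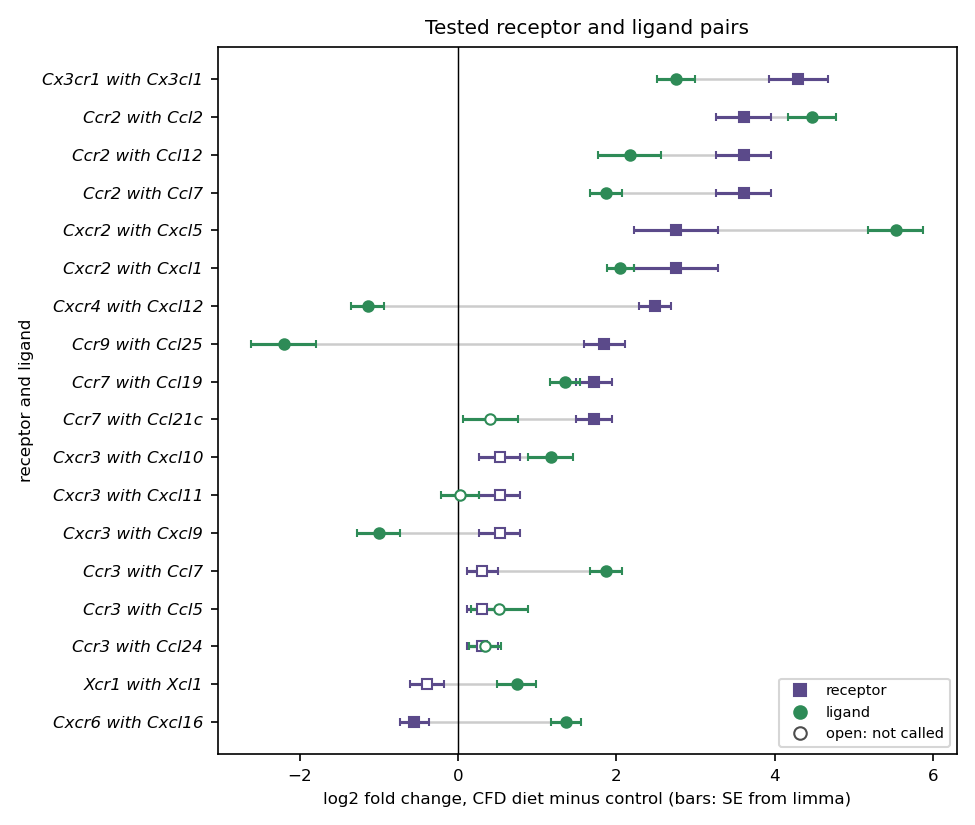
Log2 fold change (CFD diet minus control, x axis, bars SE from limma) of receptor (squares) and ligand (circles) for the 18 pairs with both genes tested (y axis), open where not called. Receptor and ligand lie on opposite sides of 0 with both called for Cxcr4 with Cxcl12, Ccr9 with Ccl25 and Cxcr6 with Cxcl16.

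The arrays of a diet were not alike. CFD diet replicate 3 had the highest CFD diet value in 20 of the 23 members called higher, among them Ccl2, Ccl4, Cxcl5, Cx3cr1 and Ccr2. CFD diet replicate 2 had the highest, and so the most control-like, CFD diet value in 5 of the 8 members called lower. The same counts over all called genes were not made, so this order of arrays cannot be called particular to chemokine genes. Within slides 1 to 3, Ccl2 differed by 3.95, 4.08 and 5.39, Ccl3 by 4.91, 4.54 and 6.16, and Cx3cr1 by 4.86, 3.04 and 4.99. With the slide as a replicate block, 22 members were called higher and 6 lower, against 22.2% and 23.8% of all tested genes.

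In the genome, 32 members lay in 7 groups with neighbouring probes within 500 kb (build mm7). On chromosome 11, Ccl2, Ccl7, Ccl11, Ccl12, Ccl8 and Ccl1 spanned 82118723 to 82258468, and all 3 that were tested were called higher. Ccl5, Ccl9, Ccl6, Ccl3 and Ccl4 spanned 83595699 to 83734514 on that chromosome, with 3 called higher and 1 lower. On chromosome 5, Cxcl5, Ppbp, Pf4, Cxcl15, Cxcl1 and Cxcl2 spanned 90732453 to 90894807, and 3 were called higher and 1 lower of 4 tested. Members next to each other were both called in 9 cases, and in 5 of these the directions were opposite. Those were Ccl9 and Ccl6, with 13714 bases between their probes, Cxcl5 and Ppbp (8705), Ppbp and Pf4 (3245), Cxcl9 and Cxcl10 (23530), and Ccr9 and Cxcr6 (30707). Only Ccl9 and Ccl6 kept both calls in every alternative setting run. Ppbp, Cxcl9, Cxcl10 and Cxcr6 each lost the call in at least 1.

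Other genes of the chemokine system were described from lists that leave out the members. Some listed genes, here and in the signalling and cytokine lists below, entered the test through the CFD diet arrays alone. Counts of higher genes in these lists therefore lean upward by construction. Of 13 tested atypical receptors and related genes, 5 were called higher and 3 lower, against 23.7% and 27.4% of all tested genes, with a median difference of -0.37. Ackr3, a scavenger of Cxcl12, was higher by 1.97 ± 0.40 (limma adjusted p = 0.00689), with 2 of 3 control arrays well above background, and Ccrl2, which presents chemerin, by 1.78 ± 0.21 (limma adjusted p = 0.000955). The 3 called lower, named after their values were seen, were Ackr4, a scavenger of Ccl19, Ccl21 and Ccl25 (-1.32 ± 0.45, limma adjusted p = 0.0454), Cmtm6 (-1.0 ± 0.21) and Dpp4, a protease that trims chemokines (-0.58 ± 0.14).

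Of 39 tested genes that act below chemokine receptors, 21 were called higher and 3 lower, against 23.7% and 27.4% of all tested genes, with a median difference of 0.50 beside -0.11 over all tested genes. Rgs1, which shortens Gi signalling, was higher by 3.18 ± 0.19 (limma adjusted p = 0.000109). Pik3r5, a regulatory subunit of PI3-kinase gamma, was higher by 3.02 ± 0.40, and its catalytic subunit Pik3cg by 2.13 ± 0.29, with 1 control array well above background. The 3 called lower, named after their values were seen, were Ptk2b (-1.46 ± 0.19), Plcb3 (-0.60 ± 0.11) and Tiam1 (-0.68 ± 0.19).

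Of 25 tested cytokine and NF-kB genes known to induce chemokines or to restrain that induction, 16 were called higher and 3 lower, against the same shares of all tested genes, with a median difference of 0.72. Tnf, an inducer of many chemokines, was at -5.17, -5.11 and -6.02 on control arrays, 1 of them well above background, and at -1.96, -2.42 and -1.30 on CFD diet arrays. It was higher by 3.54 ± 0.35 (limma adjusted p = 0.000546). The inhibitors Il1rn (3.12 ± 0.19), Tnfaip3 (2.26 ± 0.23) and Tnip1 (1.87 ± 0.19) were also called higher. The 3 called lower, named after their values were seen, were Ifng, the inducer of Cxcl9 to Cxcl11 (-0.75 ± 0.26, limma adjusted p = 0.0479), Rela (-0.44 ± 0.14) and Bcl3 (-0.68 ± 0.22).

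Markers of cells that carry or make chemokines are given beside them. Their counts are to be read against 23.7% called higher and 27.4% called lower over all tested genes. Some macrophage, neutrophil, NK cell, dendritic cell, eosinophil and cholangiocyte markers entered the test through the CFD diet arrays alone. Counts of higher markers in these lists therefore lean upward by construction. Among the neutrophil markers these were Retnlg, Mmp8 and Mmp9. Of 21 tested macrophage and monocyte markers 17 were called higher and 2 lower, and their summed signal, in units of each array's 75th percentile, was 199 to 278 on control arrays and 546 to 709 on CFD diet arrays. Trem2, of lipid-associated macrophages, was higher by 6.02 ± 0.27 and Itgax by 4.77 ± 0.37. The resident Kupffer cell genes Timd4 and Clec4f, the 2 called lower, differed by -1.80 ± 0.55 and -0.73 ± 0.21. Other Kupffer cell genes of the list, named after their values were seen, did not fall. Marco (1.77 ± 0.54) and Cd5l (0.41 ± 0.14) were called higher, and Vsig4 (0.25 ± 0.13) was not called. The part of macrophages and monocytes in the higher Ccl2, Ccl3, Ccl4, Ccr2 and Cx3cr1 was not tested. Of 8 tested neutrophil markers 7 were called higher and 0 lower, and the sum over the list was 3.13 to 4.53 against 20.9 to 27.5. S100a8 was higher by 3.85 ± 0.21 and S100a9 by 3.72 ± 0.23, while the granule genes Camp and Ngp were well above background on no array. Without S100a9, the brightest of the list, the sum was 1.88 to 2.51 against 3.79 to 4.81. The part of these in the higher Cxcr2 was not tested.

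Of 12 tested T cell markers 0 were called higher and 3 lower, a share near the 27.4% of all tested genes called lower. Their summed signal was 4.34 to 4.96 on control arrays and 2.03 to 3.19 on CFD diet arrays, and without Zap70, the brightest, 2.24 to 2.54 against 1.57 to 1.93. CFD diet array 2 held the highest of these CFD diet sums. It also held the highest CFD diet values of Ccl25, Ccl27a, Cxcl12 and Cxcl13. That was not particular to T cell markers. The hepatocyte (5240), cholangiocyte (134), endothelium (39.2) and B and plasma cell (21.1) lists also had their highest CFD diet sum there. In the other marker lists CFD diet array 3 had the highest sum. The 3 called lower were Zap70, a kinase of the T cell receptor (-1.62 ± 0.34), the costimulatory receptor Icos (-1.21 ± 0.28) and Cd4 (-0.59 ± 0.18), the last with 2 of 3 control arrays well above background. Foxp3 and Ctla4 were well above background on no array. The part of T cells in the lower Cxcr6 and Cxcl9 was not tested.

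The other lists gave summed signals, control against CFD diet, as follows. Dendritic cell markers were at 2.75 to 3.53 against 5.93 to 8.57, with 6 of 8 tested called higher and 0 lower. NK cell markers were at 0.841 to 1.17 against 1.1 to 1.71, with 3 of 9 called higher and 0 lower. The next lists rest largely on a single bright gene. B and plasma cell markers were at 20.6 to 25.4 against 15.4 to 21.1, with 1 of 7 called higher and 2 lower, but most of that sum was Sdc1, and without it the sums overlapped, at 1.1 to 1.73 against 1.04 to 1.33. Eosinophil and mast cell markers were at 0.733 to 0.837 against 1.39 to 1.69, with 2 of 3 called higher and 1 lower. Without Ear1, the brightest of that list, the order turned round, to 0.424 to 0.531 against 0.343 to 0.412, and Epx, Il5ra, Cpa3 and Tpsb2 were well above background on no array. Epithelial, stromal and endothelial lists came from the liver's own cells. Cholangiocyte markers were at 8.09 to 10.9 against 104 to 134, with 8 of 9 called higher. Most of that sum was Spp1, and without it the sums were 2.87 to 2.96 against 16.6 to 19.3. Stellate cell and myofibroblast markers were at 19.0 to 21.3 against 57 to 75.7, with 10 of 10 called higher. Endothelial markers were at 46.0 to 50.1 against 32.1 to 39.2, with 1 of 11 called higher and 5 lower. Hepatocyte markers, at 5060 to 6560 against 3180 to 5240, overlapped. Their part in the levels of Cx3cl1, Cxcl5, Cxcl12 and Cxcl14, which such cells can make, was not tested.

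**Figure D5:**
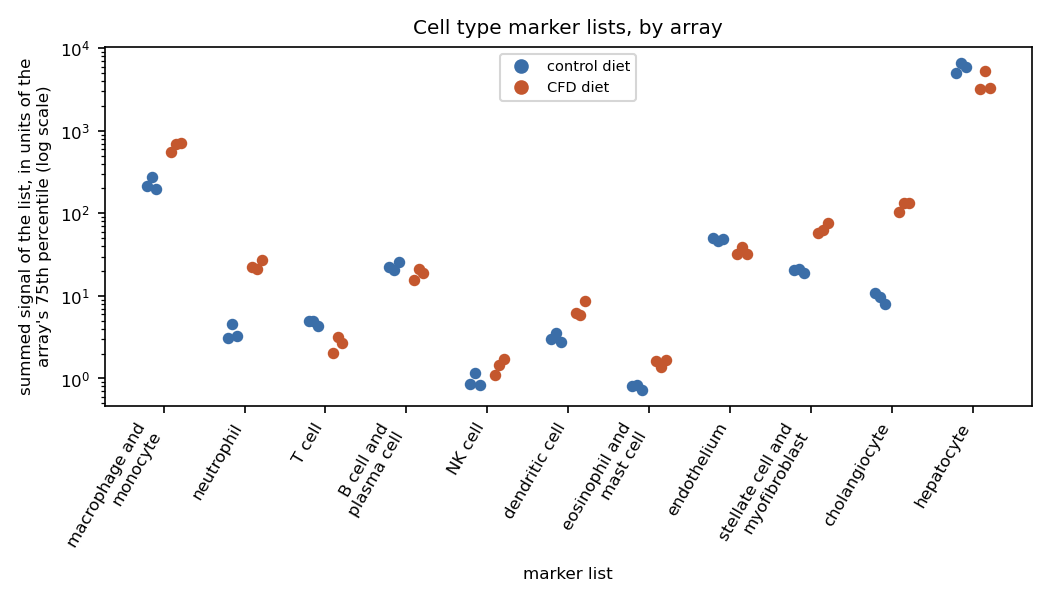
Summed signal of each cell type marker list (x axis) in units of the array's 75th percentile of signal (y axis, log scale), 1 point per array. CFD diet points lie above all control points for the macrophage and monocyte, neutrophil, dendritic cell, eosinophil and mast cell (through Ear1 alone), stellate cell and cholangiocyte lists, and below them for the T cell and endothelium lists.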

How the data were processed

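Total RNA from 6 mouse livers, 3 per diet, was read on Agilent 1-colour arrays. Per the file headers and the submitters' processing notes, spot intensities were extracted with Agilent Feature Extraction (10.5.1.1 in the headers, 10.7 in the notes), and the deposited intensity used was the processed signal, already corrected for background by that program. The deposited value table, also of linear intensities, served as an alternative, and its columns matched the scanner files of another replicate of the same group.

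Control and outlier spots were left out, log2 of the signal was scaled to each array's 75th percentile, and repeated spots were averaged by probe. Testing took the 23482 probes that stood well above background throughout a group, and the brightest tested probe by mean over the 6 arrays stood for a gene. Probes were named by accession (22951), by current (6659) or older symbol (3109) in RefSeq's gene table, or kept the file's name (8455). The comparison of diets used limma 3.58.1 (R 4.3.3), tested on simulated data, with Benjamini-Hochberg adjustment over all genes tested. All arrays were scanned on the same day, and each of 3 slides held 1 control and 1 CFD diet array of the same number. Where 0 arrays of a group were well above background, a member has only a bound, set from the other group's mean and, on each array of the dim group, from the probe's value or the dimmest signal well above background, whichever was higher.

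Members, pairs and gene lists were chosen with earlier results of these data known. Values by array were given for members called with at least a 2-fold difference or a bound of that size and for their tested partners. From the other lists at most 4 genes were to be named, the largest calls in the more frequent direction and markers near background. That rule was not kept throughout. Gpnmb of the macrophage list (8.5 ± 1.04) and Gng2 of the signalling list (2.52 ± 0.2) were passed over for smaller calls. Gpnmb had 2 of 3 control arrays well above background. Values of 1 tested member, which stays in the counts of members, and of 1 listed marker are not reported here. Most genes beyond this rule are given to account for the members or are named as chosen after their values were seen. Alternatives covered background correction (normexp, offset 50), scaling, the filter on dim probes, the choice of probe, the limma prior, the slide, the deposited table and each array left out. With 3 arrays per group, the number of arrays limits the precision. Probe coordinates are those of the array files (mm7), and promoters are RefSeq's on GRCm38.p6.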

Additional observations from a re-analysis of the deposited data

How the results depend on the processing

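Over 15 alternative settings, 23 of the 31 called members kept their call and direction wherever they were tested (19 higher, 4 lower), and 8 lost the call in at least 1, among them Ccl12, Cxcl10, Cxcl13, Cxcl9, Ppbp, Xcl1 and Cxcr6. No difference changed sign with a call. A filter asking for all 6 arrays well above background left out the members entered through the CFD diet arrays alone. Of the 28 members left, 13 were then called higher, against 19.8% of all genes so detected. Without a filter on dim probes, 4 of 52 members were called lower, and 2460 (8.89%) of all genes. Leaving out each array in turn gave 22 to 23 members higher and 4 to 8 lower (4 without control replicate 2), and over all genes 3113 to 3930 higher and 2770 to 4954 lower (2770 with control replicate 3 left out, 2886 with CFD diet replicate 3). Normexp correction gave 21 members higher and 6 lower, where 17.9% and 21.8% of all tested genes were called. Quantile normalization and median scaling each gave 22 and 10. The shares of all tested genes were 26.5% higher and 26.5% lower with quantile normalization, and 18.4% and 36.5% with median scaling.

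Same-numbered arrays shared a slide, and their deviations from the group means correlated at 0.174, -0.0685 and -0.0105. Differently numbered arrays correlated at -0.197 to 0.167. With 3 arrays per group, these values cannot decide whether the slides paired the samples. With the slide as a replicate block 22 members were called higher and 6 lower, and 3526 and 3793 of all genes. That block ended the calls of Ppbp, Xcl1 and Cxcr6 and changed no other member's call.

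Normexp correction moved the log2 differences of 14 called members by over 1.5 times, the most for Ccl12 (from 2.17 to 0.27), Xcl1 (0.74 to 0.17) and Cxcr2 (a fitted 2.76 to 0.78), and Cxcl5 went from a fitted 5.53 to 1.61. Some of the 14, such as Ppbp and Ccr9, were well above background on all 6 arrays.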
